A study of Mus musculus with 8 samples.

Results

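These are the resting CD8 T cells of healthy newborn mice, measured in the 4 wild-type (WT) libraries of a series of 8. The libraries were chosen by their genotype label alone, and no value of another library is given here. The other libraries of the series did enter the choice of the genes listed, and may have entered the scaling. Mice were WT BALB/c, an inbred strain, and 12 days old. CD8 T cells were sorted by flow cytometry from their peripheral lymph nodes, frozen as pellets and sequenced from total RNA with a kit that keeps the strand. WT replicate 1 came from 115 M (1e+06) sorted cells of 5 pooled mice, replicate 2 from 28.7 M of 5 mice, replicate 3 from 1.3 M of 3 mice and replicate 4 from 1.3 M of 2 mice. The description of the series names spleen as a further source and heterozygous animals among the controls, whereas the sample labels give lymph node and WT. The number labelled for replicate 1 looks too large for 5 such young animals, and was kept as given. No treatment is labelled. Each library is a pool of animals, so the spread between libraries is not the spread between mice, and each value is an average over all sorted cells.

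A naive CD8 T cell leaves the thymus with a rearranged T cell receptor and the CD8 coreceptor, circulates through lymph nodes and stays small and out of cycle until it meets its antigen. Its entry to the node depends on CCR7, its exit on the receptor S1PR1, and its survival on interleukin-7. In newborn mice the pool is still being filled by recent thymic emigrants, some of fetal origin, and some of these cells divide and take on memory features without infection.

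The values are counts (CPM) per 1e+06 of a library size scaled by TMM, a method that aligns the bulk of genes between libraries. The table lists 11723 genes, of which 11405 reached 1 CPM in at least 2 of the 4 libraries. Levels of different genes are compared per kilobase (kb) of each gene's longest annotated transcript, which 11512 genes had. Values are given as mean ± SD with n = 4 libraries, and the 4 values of a gene stand in the order of replicates 1 to 4. The counts behind the table were recovered as 16.5, 11.9, 17.4 and 16.6 M, so 1 CPM stands for 11.9 to 17.4 counts. Counting error alone was 7.59% to 9.18% at 10 CPM and 2.40% to 2.90% at 100 CPM, and PCR duplicates were not separable. Low genes had been removed over all libraries of the series, and some genes are missing for other reasons, since B2m and Trac, which T cells make in quantity, are not listed either. Nothing is therefore read from a gene that is not listed.

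Replicate 2 stood apart from the other libraries, and this touches several results. Across the 11405 genes, Pearson's r of log2 values was 0.981 to 0.982 between replicate 2 and each other library, against 0.994 to 0.996 among the other 3. The median gap of a gene to the mean of the other libraries was 0.171 on the log2 scale in replicate 2 and 0.0922 to 0.104 in the rest. A gene was counted as apart in a library when that library's gap to its nearest neighbour took up more of the range of the 4 values than Dixon's critical value allows. By this measure replicate 2 was apart on the high side for 451 genes (3.95%) and on the low side for 262 (2.3%). The other libraries were apart for 22 to 52 genes on the high side and 20 to 42 on the low side.

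The 6 genes that mark the label were all well detected. Cd8a and Cd8b1 encode the alpha and beta chains of the CD8 coreceptor. Cd8a (GRCm38 chr6:71373427-71379171) was listed at 1979, 1679, 1794 and 1906 CPM, and Cd8b1 (chr6:71322788-71337492) at 1353, 929, 1028 and 1170 CPM. Per kb they ranked 34 and 26 of 11512 genes, at 588 ± 42.0 and 755 ± 124 CPM per kb. The ratio of Cd8a to Cd8b1 per kb was 0.693, 0.857, 0.828 and 0.773, so neither chain was in large excess in any library. Tcf7 (chr11:52246527-52283383), the transcription factor TCF-1 of naive and memory precursor cells, was listed at 1186, 1128, 1278 and 1295 CPM. S1pr1 (chr3:115710433-115715055), the egress receptor, stood at 503, 473, 489 and 556 CPM. Both genes varied little, with the highest library 1.15 and 1.18 times the lowest. Ccr7 (chr11:99144199-99155077), the lymph node homing receptor, was listed at 394, 284, 378 and 364 CPM. Ccr9 (chr9:123767211-123783457), the receptor for the thymic and gut chemokine CCL25, stood at 251, 153, 253 and 263 CPM. Replicate 2 was the lowest of the 4 libraries for each of the 6 markers, and it was apart from the others for Ccr9.

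The most abundant transcripts were those of the actin cytoskeleton, of translation and of MHC class I. Per kb the highest gene was Tmsb4x, which encodes the actin-binding peptide thymosin beta 4, at 5126 ± 555 CPM per kb. Eef1a1, the elongation factor that brings tRNA to the ribosome, came next at 4158 ± 221 CPM per kb. In CPM, Eef1a1 was listed at 7556, 7957, 7022 and 7303 and Tmsb4x at 4421, 5096, 3984 and 4216. Replicate 2 had the highest value of both. The other genes among the 20 highest included Cd52, a short glycoprotein of the lymphocyte surface (1801 ± 166 CPM per kb), Actb (1761 ± 159), Coro1a, an actin regulator needed for naive T cell survival (1065 ± 74.2), Arhgdib (939 ± 159) and Tmsb10 (1345 ± 184). Eef2, the elongation factor of translocation, stood at 927 ± 27.1 CPM per kb and varied by 1.07 times from the lowest to the highest library. H2-D1 and H2-K1, the classical MHC class I heavy chains, reached 916 ± 45 and 872 ± 68.9 CPM per kb. BALB/c mice carry other alleles of these than the reference strain, and the near-identical class I genes share reads, so their levels are uncertain.

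Ribosomal protein genes supplied 9 of the 20 highest genes and 28 of the 100 highest. The highest was Rplp1, a protein of the ribosomal stalk, at 2324 ± 520 CPM per kb. Rps27rt, a near copy of Rps27 that is counted apart from the family, stood higher still at 3064 ± 287, and reads of the copies cannot be told apart. Rpl4, Rpl13a, Rps15, Rpl8, Rpl41 and Rps4x were among the others, between 915 and 1590 CPM per kb. The listed 78 genes of the family had a median of 218 CPM per kb against 12.2 over all genes. Many processed pseudogenes copy these genes, and the table shares reads between copies.

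The profile was broad rather than ruled by a few transcripts. The 10 highest genes made up 7.18% ± 0.518 of all CPM per kb, the 20 highest 10.3% ± 0.793, the 100 highest 21.4% ± 0.999 and the 1000 highest 53.1% ± 1.02. Of the 20 genes, 18 or 19 were also among the 20 highest in each single library. By CPM without length the 20 highest genes made up 5.22% ± 0.123, and 7 genes were shared with the list per kb. Long transcripts take higher places there, such as Macf1, a cytoskeletal linker (2731, 2104, 2950 and 3100 CPM), Ptprc and Myh9. Of all listed genes, 58 had a mean of at least 1000 CPM, 2724 of at least 100 and 8924 (76.1%) of at least 10. A mean under 1 CPM was found for 310. The median over all listed genes was 38.2 CPM and 12.2 CPM per kb, against which the lists are read.

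**Figure D1:**
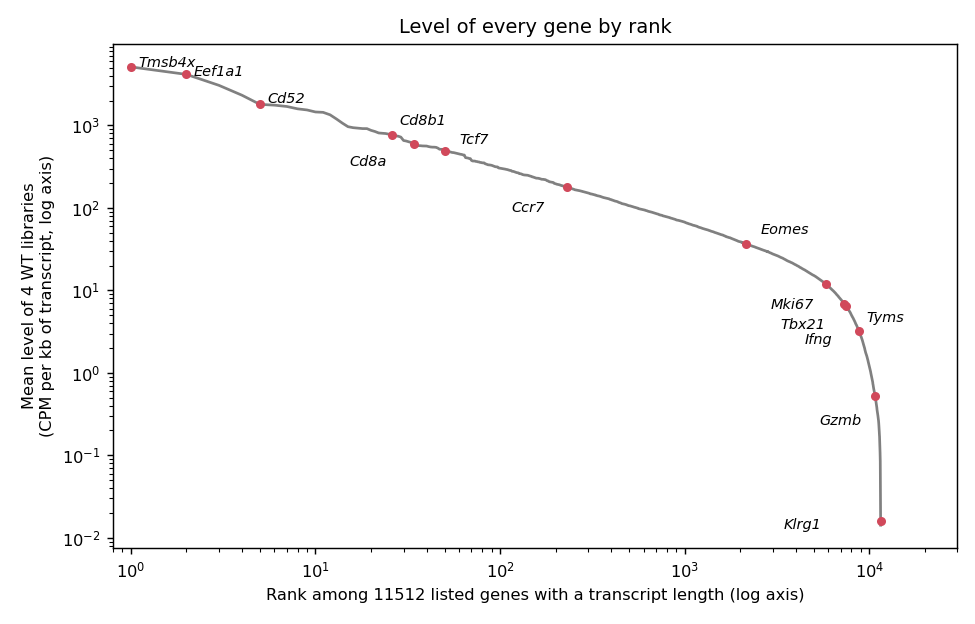
Mean CPM per kb of transcript (log axis) against rank (log axis) for 11512 genes over the 4 WT libraries, with named genes marked. Tmsb4x leads at 5126 CPM per kb, Cd8b1 and Cd8a stand at ranks 26 and 34, and Klrg1 is near the end of the curve.

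Genes of the T cell receptor complex were uniformly high. Of 17 genes of the CD8 and receptor complex list 14 were listed, and all 14 had a mean of at least 100 CPM. Their median was 277 CPM per kb, and in each of them the highest library was within 1.5 times the lowest. Of all genes tested 81.6% kept within that span, and abundant genes agreed better in general. Ptprc, the phosphatase CD45, was listed at 3396, 3553, 3635 and 3668 CPM, the third highest gene by CPM. Thy1, a surface glycoprotein of T cells, stood at 992, 927, 923 and 1004 CPM. Among the invariant CD3 chains, which carry the receptor's signal, Cd3d was the highest per kb (355 ± 16.2), with Cd3g at 293 ± 7.91 and Cd3e at 227 ± 21.4 CPM per kb. Cd28, the main costimulatory receptor, was the lowest of these, at 33.8 ± 4.33 CPM per kb. Trac, Trbc1 and Trbc2, the constant chains of the receptor itself, are not listed in the table used here, nor is any T cell receptor segment or mitochondrial genome gene.

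The signalling apparatus behind the receptor was in place. All 23 genes of the list were listed, 20 with a mean of at least 100 CPM. All 23 kept within 1.5 times between libraries, as did 81.6% of all genes tested, and abundant genes agreed better in general. Lck, the kinase that phosphorylates the receptor chains, was the highest, at 1135, 1289, 1013 and 1045 CPM (513 ± 56.7 per kb). Zap70, the kinase that binds the phosphorylated chains, stood at 285, 331, 289 and 286 CPM, with replicate 2 apart on the high side. The adaptor Lat stood at 268 ± 22.8 CPM per kb and the kinase Prkcq at 169 ± 12.9. The lowest member was Trat1, an adaptor tied to the receptor, at 12.5, 11.1, 13.2 and 11.9 CPM.

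Transcription factors of naive T cells were well expressed. Of the 20 lineage and naive factors all were listed, 13 at 100 CPM or more and 7 between 10 and 100, with a median of 40.3 CPM per kb. Tcf7 led per kb (494 ± 32.0), and Ets1, a factor needed for interleukin-7 receptor expression, followed at 330 ± 30.4 with 1483, 1642, 1846 and 1742 CPM. Lef1, the close relative of TCF-1, was listed at 332, 379, 444 and 374 CPM, and Tcf7 stood 4.77 ± 0.513 times higher per kb. Ikzf1 (Ikaros) reached 222 ± 12.3 CPM per kb, Satb1, an organizer of chromatin, 165 ± 12.1, Klf2, which drives S1pr1, 152 ± 23.7, and Foxp1, a factor of quiescence, 53.2 ± 5.43. Bcl11b, which keeps T cell identity, stood at 295, 385, 296 and 280 CPM. For this gene too replicate 2 was apart on the high side, whereas for Tcf7 it was the lowest of the 4.

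Runx3 and Zbtb7b are the factors that set the CD8 and the CD4 fate and oppose each other. Runx3 was listed at 149, 124, 170 and 160 CPM. Zbtb7b, which encodes ThPOK, stood at 3.65, 12.8, 1.32 and 2.11 CPM. The ratio of Runx3 to Zbtb7b per kb was therefore 45.5, 10.8, 143 and 84.6, and it was lowest in replicate 2, where Zbtb7b was highest and Runx3 lowest. Without replicate 2 the mean of Zbtb7b was 2.36 CPM instead of 4.97.

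Surface genes of naive cells were lower than the receptor complex and above the median gene. All 18 genes of the list were listed, 14 of them at 100 CPM or more, with a median of 91.3 CPM per kb. Il7r, the alpha chain of the interleukin-7 receptor, had 438, 693, 888 and 776 CPM. It was the only member of this list that varied by over 2 times (2.03), with replicate 1 the lowest. Igfbp4, a binding protein of insulin-like growth factors known from naive T cells, stood at 369, 330, 392 and 330 CPM. In the order per kb, Il7r (197 ± 54.0), Ccr7 (179 ± 24.6) and S1pr1 (166 ± 11.9) each differed from the next by less than the larger of the SDs, and Igfbp4 (92.7 ± 8.03) and Ccr9 (44.3 ± 9.91) came below them.

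Quiescence genes, which hold back growth and division, had a median of 70.8 CPM per kb. Of 20 genes 19 were listed, 14 at 100 CPM or more, and Cdkn1a was not listed. Txnip, which limits glucose uptake, stood at 1009, 802, 1039 and 865 CPM (329 ± 40.1 per kb). Zfp36l2, which shortens the life of mRNA, was listed at 717, 1123, 1113 and 719 CPM, and Btg1, an antiproliferative factor, at 626, 1103, 859 and 746 CPM. These genes varied more than the receptor genes, and 12 of 19 kept within 1.5 times, against 81.6% of all genes tested. The inhibitor of cyclin-dependent kinases Cdkn1b (p27) was steadier, at 207, 219, 248 and 248 CPM, and Cdkn2c (p18) was low, at 6.83, 6.41, 6.91 and 5.97 CPM. Among survival genes, the GTPase genes Gimap3 (633 ± 106 CPM per kb) and Gimap4 (548 ± 82.7) were the highest. Per kb, Mcl1, an inhibitor of apoptosis, stood at 164 ± 9.10, Bcl2 at 30.3 ± 4.08 and Bcl2l1 at 9.97 ± 0.985.

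**Figure D2:**
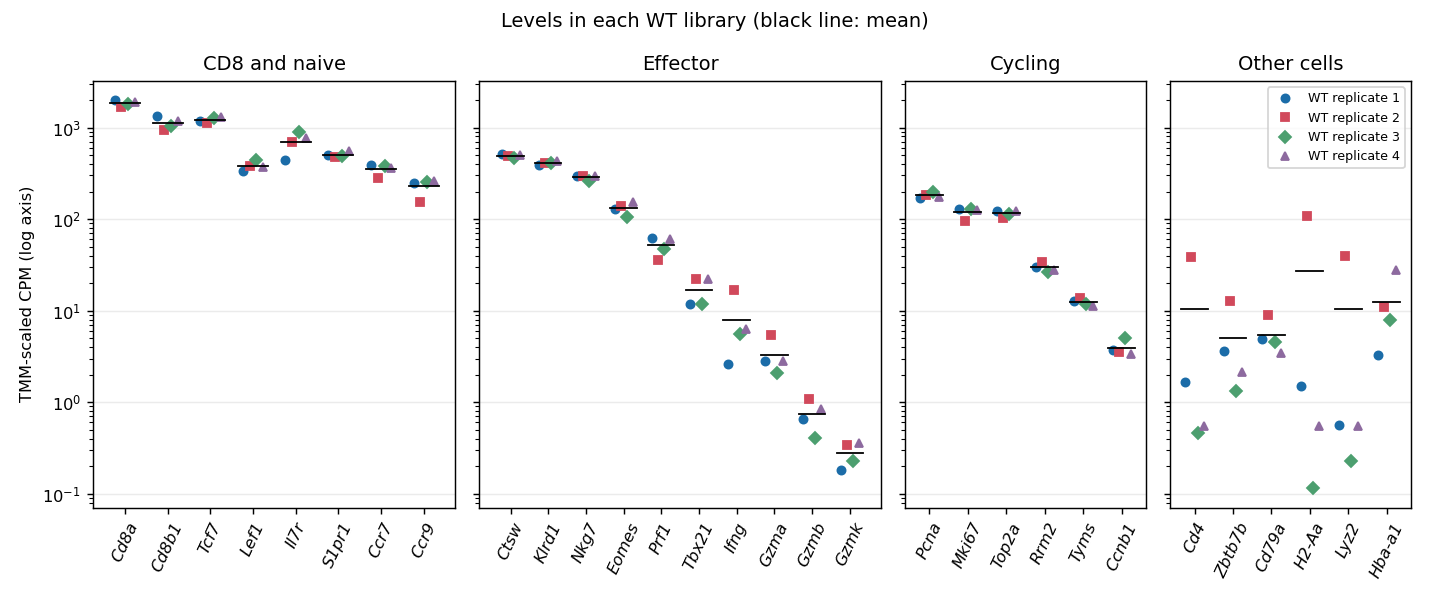
TMM-scaled CPM (log axis) of 30 genes in each WT library, one symbol per library, with a black line at the mean. Among CD8 and naive genes, Tcf7 and S1pr1 vary little between libraries, while Il7r spans 438 to 888 CPM and Ccr9 153 to 263 CPM. Effector genes spread from about 500 CPM for Ctsw to under 1 for Gzmb and Gzmk, and Cd4, H2-Aa and Lyz2 are highest in replicate 2.

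Genes of DNA replication and mitosis were detectable, at or under the level of the median gene. All 31 S phase genes were listed, with a median of 12.4 CPM per kb against 12.2 over all genes. Pcna, the sliding clamp of DNA polymerase, was listed at 169, 185, 200 and 173 CPM (120 ± 9.08 per kb). Mcm3, a subunit of the replicative helicase, stood at 34.2 ± 2.41 CPM per kb, the nucleotide-reducing enzyme Rrm2 at 13.5 ± 1.52 and thymidylate synthase, Tyms, at 3.19 ± 0.265. The lowest member was Exo1, a DNA exonuclease, at 5.36, 2.65, 5.05 and 4 CPM.

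The 34 genes of G2 and M phase, also all listed, were lower, with a median of 3.79 CPM per kb, and 12 of them had a mean under 10 CPM. Only Mki67, Top2a and Kif23 passed 100 CPM. Mki67, the proliferation antigen Ki-67, was listed at 130, 94.4, 131 and 127 CPM, with replicate 2 apart on the low side. Top2a, the topoisomerase of dividing cells, had 122, 102, 115 and 122 CPM, and Kif23, a kinesin of cell division, 110, 93.7, 108 and 105 CPM. Levels per kb were 12.0 ± 1.73 for Mki67, 22.1 ± 1.78 for Top2a and 30.6 ± 2.12 for Kif23. Per kb, Mki67 stood at 0.0203 ± 0.00212 of Cd8a. Cenpa, the histone of centromeres, reached 12.4 ± 0.964 CPM per kb, and Ccnb1, the mitotic cyclin B1, was low, at 3.73, 3.58, 5.05 and 3.4 CPM. In a bulk library few cycling cells and low levels in all cells cannot be told apart. Agreement was ordinary here, as 27 of 31 S phase and 25 of 34 G2 and M phase genes kept within 1.5 times, where 9308 of the 11405 genes did so overall. Glycolysis genes had a median of 26.1 CPM per kb, with Pkm, the pyruvate kinase gene, at 171 ± 7.78 and the inducible hexokinase Hk2 at 1.33 ± 0.0595.

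Effector genes spanned a wide range, with receptor and granule membrane genes high and granzymes very low. Of 30 cytotoxic effector genes 29 were listed and 23 passed the filter of 1 CPM in 2 libraries. Their means were at 100 CPM or more for 6, at 10 to 100 for 10, at 1 to 10 for 8 and under 1 for 5, with a median of 6.56 CPM per kb. Klrd1 (CD94), a chain of inhibitory and activating lectin-like receptors, was listed at 386, 407, 414 and 428 CPM (445 ± 18.7 per kb). Nkg7, a membrane protein of cytotoxic granules, had 293, 293, 261 and 299 CPM (325 ± 19.4 per kb), and Ctsw, a cathepsin of cytotoxic cells, 521, 491, 467 and 500 CPM (316 ± 14.2 per kb). These 3 genes kept within 1.14 times between libraries, and replicate 3 was apart on the low side for Nkg7. Ltb, a lymphotoxin chain, followed at 253 ± 23.7 CPM per kb and Srgn, the proteoglycan of granules, at 135 ± 34.5. Prf1, the pore-forming perforin, was lower, at 62.7, 36.0, 47.5 and 60.9 CPM (20.9 ± 5.06 per kb).

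Granzymes, the proteases that perforin delivers, were close to the limit of the table. Gzmm was listed at 4.55, 5.73, 2.59 and 5.31 CPM and Gzma at 2.81, 5.48, 2.07 and 2.83 CPM. Gzmb had 0.659, 1.10, 0.403 and 0.844 CPM, and Gzmk 0.180, 0.337, 0.230 and 0.362 CPM. Klrg1, a receptor of terminal effector cells, was listed at 0 in replicates 1 and 4, at 0.0843 in replicate 2 and at 0.00633 in replicate 3. In every library Gzmm and Gzma were above 1 CPM and Gzmk and Klrg1 under it, and a value of 1 CPM rests on under 20 counts. Fasl, the death ligand, stood at 0.120, 0.843, 0.173 and 0.181 CPM, and its mean was 0.329 with and 0.158 without replicate 2.

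Ifng, the interferon gamma gene, was listed at 2.63, 16.7, 5.58 and 6.33 CPM and the chemokine gene Ccl5 at 14.6, 89.8, 11.1 and 18.8 CPM. Both were highest in replicate 2, and without it their means were 4.85 instead of 7.81 and 14.8 instead of 33.6 CPM. The gene of interleukin-2 itself, Il2, was at 5.72, 5.65, 6.25 and 5.91 CPM, within 1.11 times in all libraries.

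Among the factors of effector and memory cells Stat4 and Id2 were the highest per kb, with Eomes next. Of 19 genes in the list 18 were listed and 16 passed the filter, with a median of 4.87 CPM per kb. Stat4, the transducer of interleukin-12, was listed at 269, 270, 292 and 318 CPM (96.3 ± 7.74 per kb) and Id2, a factor of effector differentiation, at 151, 158, 163 and 130 CPM. Eomes, a T-box factor of memory and innate-like CD8 T cells, had 128, 138, 105 and 154 CPM. Its relative Tbx21 (T-bet), which drives terminal effectors, had 11.9, 22, 11.9 and 22.2 CPM. Per kb Eomes was 7.54, 4.39, 6.15 and 4.84 times Tbx21, above it in every library. Prdm1 (Blimp-1) was low, at 1.2, 3.20, 1.67 and 0.965 CPM, and Zeb2 was listed at 0.419, 7.42, 0.461 and 0.121 CPM, with a mean of 0.333 without replicate 2.

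Activation genes had a median of 12.5 CPM per kb, close to that of all genes. Of the 26 genes 11 varied by over 2 times, against 6.80% of all genes tested, and 16 were highest in replicate 2, against 34.9%. The chains of the interleukin-2 receptor were far apart. Il2rb, the beta chain shared with interleukin-15, was listed at 210, 214, 197 and 251 CPM, while Il2ra, the inducible alpha chain, had 2.81, 6.07, 2.82 and 2.29 CPM. The ratio of Il2rb to Il2ra per kb was 76.2 ± 32.1. Il2rg, the common gamma chain, was the steadiest gene named here, at 437 ± 7.43 CPM per kb and within 1.03 times. Cd44, the adhesion receptor that rises on memory cells, stood at 70.0, 84.1, 69.2 and 68.4 CPM. Cxcr3, a chemokine receptor of memory-like CD8 T cells, had 47.8, 45, 33.3 and 61.7 CPM, and Ccr7 was 6.95 ± 2.17 times higher per kb. Ctla4, an inhibitory receptor, was listed at 6.59, 30.8, 12.5 and 5.79 CPM, and without replicate 2 its mean was 8.29 instead of 13.9. Cd69, an early activation antigen that holds cells in the node, had 141, 347, 236 and 161 CPM, again highest in replicate 2.

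Adhesion molecules of circulating lymphocytes were high, with Itgb7, the beta chain of a gut-homing integrin, at 260 ± 12.9 CPM per kb and Itgal, the alpha chain of LFA-1, at 119 ± 10.5. All 31 cytokine receptor and kinase genes were listed, 20 at 100 CPM or more. Jak1, the kinase of the common gamma chain receptors, stood at 241 ± 21.9 CPM per kb. Interferon response genes had a median of 16.3 CPM per kb. Irf1 reached 207 ± 28.7 CPM per kb, whereas Isg15, a gene strongly induced by type I interferon, stood at 10.1 ± 0.931.

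Listed genes known from fetal cells and recent thymic emigrants were mostly low. Of 25 genes 14 were listed and 13 passed the filter, with a median of 1.92 CPM per kb. The regulators Lin28a and Lin28b, which set the fetal programme of blood cells, are not listed in the table used here, and neither are Rag1, Rag2, Dntt and Ptcra, which act in thymocytes. Igf2bp3, an RNA-binding protein of fetal blood cells and a target of the Lin28b pathway, was listed at 67.4, 64.4, 57.2 and 69.7 CPM (14.9 ± 1.25 per kb). Its relative Igf2bp2 had 8.22, 3.20, 5.01 and 6.46 CPM. All 4 libraries of Igf2bp3 lay above all 4 of Igf2bp2 per kb too, at 14.9 ± 1.25 against 1.16 ± 0.431. Itgae (CD103), an integrin of thymic emigrants and resident cells, stood at 185, 131, 163 and 140 CPM. Ikzf2 (Helios) had 105, 87.2, 94.1 and 78.8 CPM, and Sox4, a factor of immature T cells, 12.4, 14.1, 11.6 and 13.5 CPM.

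**Figure D3:**
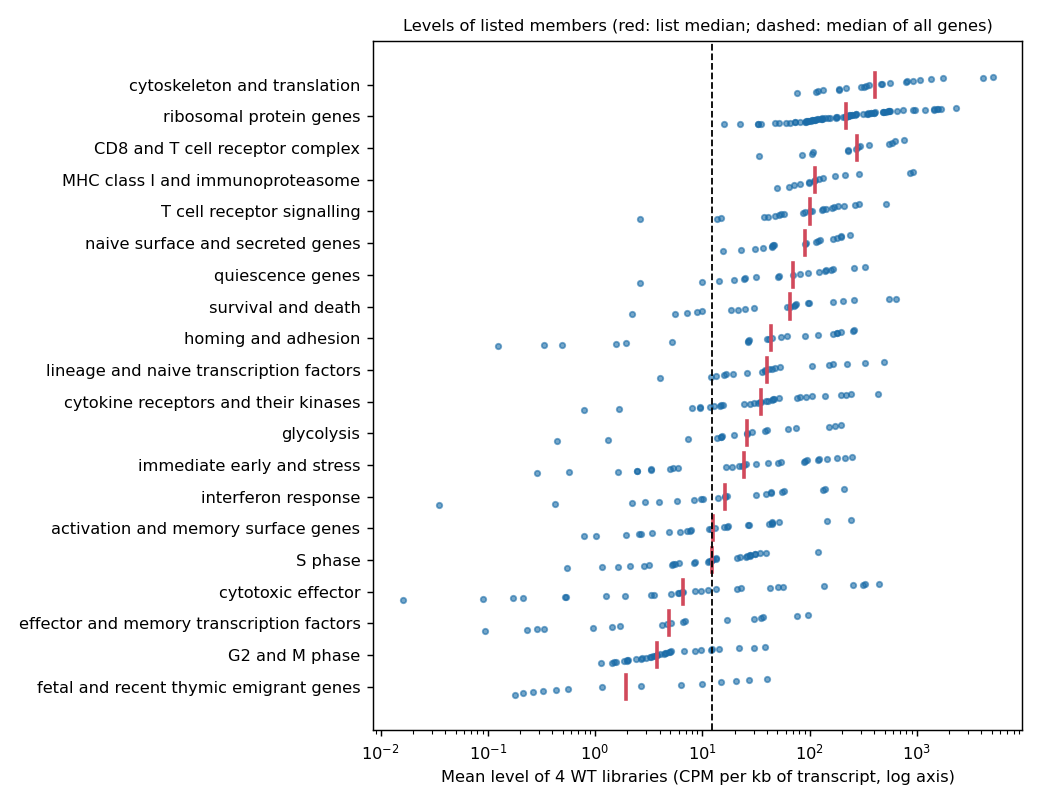
Mean CPM per kb (log axis) of each listed member (points) of the gene lists, with a red mark at each list's median and a dashed line at 12.2, the median of all genes. Translation, receptor and naive lists lie to the right of the line, S phase and activation genes near it, and effector, G2 and M phase and fetal genes to its left.

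The 4 libraries agreed best for abundant genes. The median coefficient of variation was 24.0% for the 1489 genes of 1 to 5 CPM, 13.0% for 2226 genes of 5 to 20, 7.88% for 4905 genes of 20 to 100 and 6.40% for 2724 genes of 100 or more. At 100 CPM this is more than the counting error. Over 2-fold differences between the highest and lowest library were found in 776 of 11405 genes. Replicate 2 lay over 2 times from the mean of the others in 261 genes (210 higher and 51 lower), and the other libraries in 39 to 49.

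The immediate early and stress list was the named list that varied most among the T cell lists. It joins immediate early genes, which cells switch on within minutes of a signal or of handling, with heat shock and chaperone genes. Of 30 genes 29 were listed and 27 passed the filter, with a median SD of 0.49 on the log2 scale against 0.13 over all genes tested, and 14 of the 27 varied by over 2 times. Replicate 2 was the highest library for 22 of the 27, against 34.9% of all genes tested, and apart on the high side for 6, against 3.95%. The order of replicates 2, 3, 4 and 1 from high to low was found in 16 of the 27 genes and in 858 of all 11405 (7.52%). This order was not planned and is that of the most variable genes of the same list, so its share is a description and not a test. The promoters of the 4 genes of the list with the largest SD among those with a mean of at least 10 CPM are shown. Each runs from 250 bases before to 50 bases after the annotated start in RefSeq (GRCm38.p6), on the minus strand, and capitals mark TGACG or its reverse complement CGTCA, the core of the site bound by CREB and ATF factors. The positions are chr4:95052173-95052472 for Jun, chr7:19309996-19310295 for Fosb, chr2:57123954-57124253 for Nr4a2 and chr17:26508423-26508722 for Dusp1.
Jun: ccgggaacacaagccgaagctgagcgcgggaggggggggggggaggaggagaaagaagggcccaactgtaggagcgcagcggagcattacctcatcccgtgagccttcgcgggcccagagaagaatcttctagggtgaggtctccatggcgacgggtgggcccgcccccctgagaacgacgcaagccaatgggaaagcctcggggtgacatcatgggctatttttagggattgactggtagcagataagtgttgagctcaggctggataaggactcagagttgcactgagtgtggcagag
Fosb: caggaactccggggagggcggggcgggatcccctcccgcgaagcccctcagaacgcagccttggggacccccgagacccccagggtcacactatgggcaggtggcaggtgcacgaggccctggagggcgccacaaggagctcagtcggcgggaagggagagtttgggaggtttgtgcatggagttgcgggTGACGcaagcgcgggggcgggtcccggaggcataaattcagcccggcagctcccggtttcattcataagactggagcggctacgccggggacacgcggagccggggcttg
Nr4a2: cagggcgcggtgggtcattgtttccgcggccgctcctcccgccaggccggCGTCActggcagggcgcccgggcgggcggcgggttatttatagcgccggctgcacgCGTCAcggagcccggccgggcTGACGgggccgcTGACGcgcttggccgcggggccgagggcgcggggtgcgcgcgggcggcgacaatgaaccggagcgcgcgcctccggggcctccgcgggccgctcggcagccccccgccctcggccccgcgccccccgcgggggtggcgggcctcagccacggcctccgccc
Dusp1: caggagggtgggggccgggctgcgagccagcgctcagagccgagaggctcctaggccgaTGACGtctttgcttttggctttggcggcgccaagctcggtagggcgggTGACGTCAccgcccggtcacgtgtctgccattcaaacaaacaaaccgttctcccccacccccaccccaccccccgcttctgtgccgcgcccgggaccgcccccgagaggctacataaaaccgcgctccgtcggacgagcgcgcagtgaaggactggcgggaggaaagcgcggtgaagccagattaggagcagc
The core was found 0 times in the Jun window, 1 time in Fosb, 4 times in Nr4a2 and 3 times in Dusp1, and the full palindrome TGACGTCA, which holds 2 overlapping cores, in Dusp1 alone. TATAAA on either strand was found in Nr4a2. Of all 32851 RefSeq windows 20.8% held the core and 1.79% the palindrome. Among the 11895 windows of listed genes the shares were 31.1% and 3.10%. The core was held by 14 of 28 windows of the listed immediate early and stress genes. A match is a stretch of letters and not a bound site.

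Jun, a subunit of the AP-1 factor, was listed at 16.7, 190, 44.4 and 31.2 CPM, and its partner Fosb at 16.6, 166, 59.2 and 47.1 CPM. Nr4a2, an orphan nuclear receptor gene, had 4.85, 39.4, 16.5 and 9.89 CPM, and Dusp1, a phosphatase that switches off MAP kinases, 44.5, 260, 96.7 and 67.9 CPM. All 4 genes were highest in replicate 2 and lowest in replicate 1, and only Jun met the criterion for a library apart. Without replicate 2 the means fell from 70.7 to 30.8 CPM for Jun, from 72.2 to 41.0 for Fosb, from 17.7 to 10.4 for Nr4a2 and from 117 to 69.7 for Dusp1. Higher genes of the list showed a smaller span, with Fos at 147, 426, 287 and 183 CPM and Junb at 249, 580, 373 and 336 CPM. Zfp36, which destabilizes cytokine mRNA, stood at 231, 598, 257 and 258 CPM and Nfkbia, the inhibitor of NF-kappa-B, at 126, 489, 175 and 135 CPM. For both, replicate 2 was apart from 3 libraries that lay close together. Gadd45b, outside the list, had 7.72, 69.2, 12.6 and 9.89 CPM. The order of replicates 2, 3, 4 and 1 did not hold for every member of the list. Egr2 and Egr3 stood outside it, at 17.5, 16.5, 18.8 and 17.0 CPM and at 12.2, 12.2, 15.0 and 12.8 CPM. They were chosen after their values were seen and do not stand for the genes induced through the T cell receptor.

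Summed markers of B, CD4 and regulatory T, natural killer, myeloid and dendritic cells were higher in replicate 2 than in the other libraries. Erythroid markers were highest in replicate 4. Stromal and endothelial markers differed little, at 191, 218, 213 and 204 CPM. MHC class II genes, which mouse T cells do not normally make, gave the clearest gap. H2-Aa was listed at 1.5, 107, 0.115 and 0.543 CPM, H2-Ea at 1.08, 61.9, 0.230 and 0.241 CPM, and Cd74, the invariant chain, at 3.11, 101, 1.15 and 1.33 CPM. H2-Eb1 reached 51.5 and H2-Ab1 59.2 CPM in replicate 2, against at most 1.14 and 3.92 in the others. Replicate 2 was apart from the rest for all 5 genes. The summed level of the 8 listed of 17 B cell markers, which hold 4 of these 5 genes, was 40.6, 361, 32.6 and 29.1 CPM, and 34.1 on average without replicate 2. Of the 8 listed markers 7, all but Cd79b, were highest in replicate 2, against 34.9% of all genes tested. Replicate 2 was apart on the high side for 5 of the 8, against 3.95%. Of the genes more particular to B cells, Cd79a was listed at 4.94, 9.06, 4.49 and 3.44 CPM and Cd79b at 15.9, 14.5, 13.1 and 11.5 CPM. Cr2 and Fcrla, the other listed ones, were highest in replicate 2. Ms4a1, Pax5, Ighm, Ighd and Igkc are not listed in the table used here.

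Myeloid and dendritic genes were also highest in replicate 2. Lyz2 (lysozyme) was listed at 0.569, 40.0, 0.230 and 0.543 CPM, Mpeg1, a gene of macrophages, at 0.898, 31.7, 0.173 and 0.0603 CPM, and Fscn1 (fascin), known from mature dendritic cells, at 2.04, 54.5, 1.04 and 0.904 CPM. Over the 6 listed of 16 myeloid markers the sum was 40.6, 162, 35.8 and 39.0 CPM, and over 4 of 8 dendritic markers 6.94, 34.7, 5.30 and 4.44 CPM. Cd4 stood at 1.68, 38.6, 0.461 and 0.543 CPM, and the 6 CD4 and regulatory T cell markers together at 21.9, 99.2, 23.2 and 16.4 CPM. Foxp3, the factor of regulatory T cells, did not rise with them, at 4.49, 3.96, 4.26 and 3.92 CPM. The ratio of Cd8a to Cd4 per kb was 1173, 43.2, 3871 and 3490. Natural killer markers (4 of 9 listed) summed to 4.86, 18.4, 4.52 and 4.02 CPM, and Ncr1 is not listed. The part of other cells in the immediate early, Ccl5, Ifng and Zeb2 values of replicate 2 was not tested. All markers of other cells together summed to 606 ± 318 CPM, and to 448 without replicate 2. Their highest single member in every library was Pecam1, an adhesion molecule that T cells also express, at 188, 209, 212 and 201 CPM.

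Globin transcripts had another order. Hbb-bs was listed at 4.18, 22.9, 11.2 and 35.5 CPM and Hba-a1 at 3.30, 10.8, 8 and 27.5 CPM, so both were highest in replicate 4, the pool of the fewest mice. Hba-a2, a near copy of Hba-a1, had 3.48, 11.1, 7.57 and 24.8 CPM. Alas2, the first enzyme of heme synthesis in red cells, spanned less, at 3.71, 5.31, 4.49 and 7.11 CPM. Without replicate 4 the mean of Hba-a1 was 7.38 instead of 12.4 CPM. Ahsp, another red cell gene, is not listed. Cd163l1, known from gamma-delta T cells, stood at 44.2, 71.8, 30.8 and 51.8 CPM, while the constant genes of the gamma and delta chains are not listed.

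Short transcripts, and ribosomal protein genes with them, were shifted in replicate 2. Of the 78 ribosomal protein genes 74 were highest in replicate 2, against 34.9% of all genes tested, and 31 were apart there on the high side, against 3.95%. Their median deviation from the mean of the 4 libraries was -0.06, 0.28, -0.10 and -0.11 on the log2 scale. Rplp1 was listed at 1025, 1549, 1030 and 1035 CPM and Rpl41 at 615, 968, 558 and 543 CPM. The genes were put into 10 bins of transcript length. The shortest, of a median length of 1100 bases, deviated by 0.11 in replicate 2 and by -0.08 in replicate 3. The longest, of 8298 bases, deviated by -0.07 and 0.05. The long transcripts Macf1 and Myh9 were lowest in replicate 2, at 2104 and 1262 CPM. Whether length or gene function sets these shifts was not tested.

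**Figure D4:**
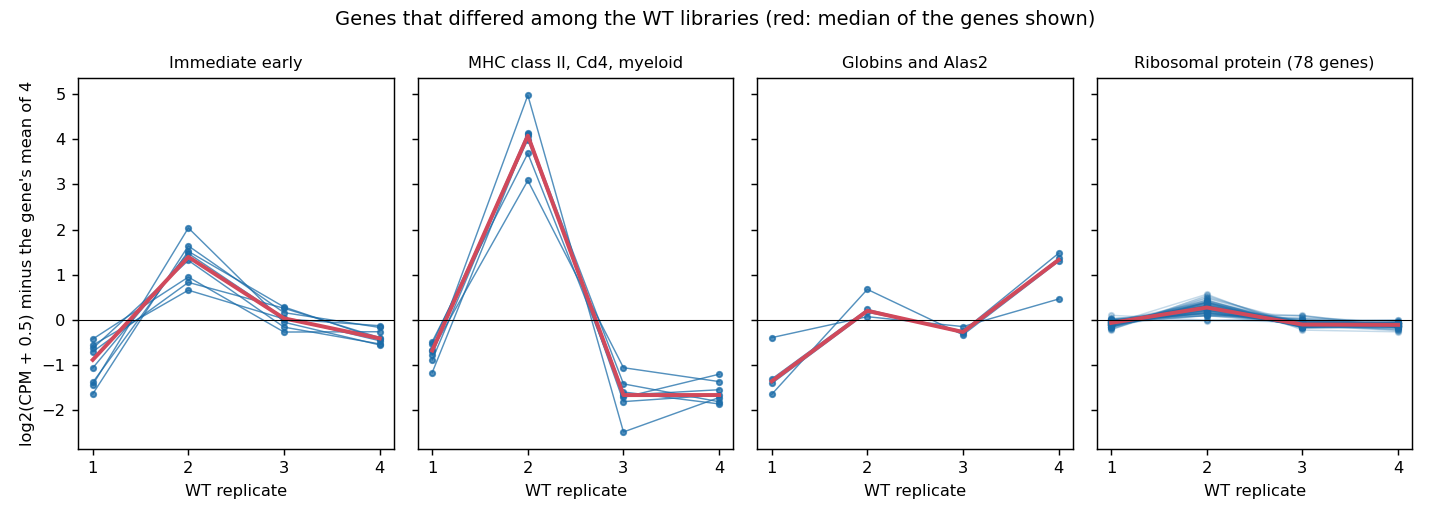
Deviation of log2(CPM + 0.5) from each gene's mean of 4 libraries, by WT replicate, for immediate early genes, MHC class II, Cd4 and myeloid genes, globins with Alas2, and 78 ribosomal protein genes, with blue lines joining the values of a gene and the median in red. The first, second and last panels peak in replicate 2 and the globin panel in replicate 4.

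**Figure D5:**
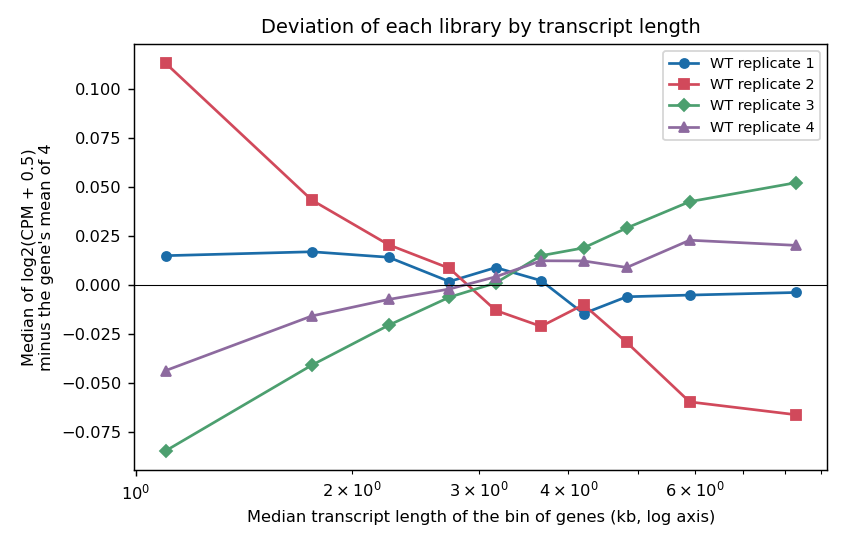
Median deviation of each WT library on the log2 scale for 10 bins of genes ordered by transcript length (log axis, kb). Replicate 2 goes from 0.11 for the shortest to -0.07 for the longest bin, and replicate 3 goes the other way.

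The number of sorted cells offered one comparison within WT, replicates 3 and 4 of few cells against replicates 1 and 2 of many. It rests on the cell numbers as labelled, of which that of replicate 1 is doubtful, and it cannot be told apart from the number of pooled mice. By limma with Benjamini-Hochberg adjustment, 0 of 11405 genes (0%) passed an adjusted p of 0.05, the smallest adjusted p was 0.832, and 504 genes (4.42%) had an unadjusted p under 0.05. Jun and Fosb in replicates 3 and 4 lay between the values of replicates 1 and 2, and Il7r lay above both. Without replicate 1 the count was 2299, with 1194 genes higher and 1105 lower in the libraries of few cells. In that fit replicate 2 is alone in its arm and its own deviation becomes the difference, as it is assumed to vary like the others. Without replicate 2 the count was 39, with 34 higher, among them Fosb, Il7r, Cxcr4, Jun, Junb, Dusp1 and Nr4a2, and 5 lower in the libraries of few cells. There replicate 1 is the lone sample. Cxcr4, the receptor for the chemokine CXCL12, stood at 81.9, 267, 172 and 139 CPM, with replicate 1 the lowest and replicate 2 the highest of the 4.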

How the data were processed

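Total RNA of the sorted CD8 T cells of 4 WT pools was made into libraries with the Illumina stranded kit, per the labels. The authors deposited 1 signal per gene and library, a count (CPM) per 1e+06 of a library size scaled by TMM. As builds, the submitters' processing notes name GRCm38 and mm10, and as tools R 3.4.3, limma 3.34.9 and featureCounts. The aligner and the strand setting of counting are not given in the sources used here. The unit planned for was CPM, and column sums over 1e+06 made it a scaled signal. All columns were mapped by their titles.

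Genes were matched by Entrez identifier to RefSeq names (11651 matched, 72 not) and to transcript lengths (11512). The depth of each library was recovered from the steps between low values. Under 20 CPM, 57.4% to 65.0% of the values were whole counts within 0.001, the rest fractions, so reads of several genes or locations were shared among them. Only the values of the 4 WT columns were used.

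Values were tested as log2(value + 0.5) in limma 3.58.1 (R 4.3.3) with a mean-variance trend, on genes of at least 1 in at least 2 libraries. The steps had first been run on simulated data. No simulated library was made to stand apart as replicate 2 did, so that run does not bear on the count found. Benjamini-Hochberg adjustment ran over all genes tested, with a threshold of 0.05. Such a fit understates the change of low genes. Levels, ranks and agreement are descriptions. The replicate numbers are shared only with a group not compared here. Alternatives were other pseudocounts, filters, scalings and lengths, and each library left out.

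The libraries, the lists and the tests were chosen with earlier results of these data known. The text names the 20 highest genes per kb, the markers, up to 8 of the highest members of each list with those under 1 CPM, and the 10 most variable genes with a mean of at least 10. Chosen after their values were seen were Bcl2l1, Ccl5, Ccnb1, Cd28, Cdkn2c, Cxcr3, Cxcr4, Dusp1, Egr2, Egr3, Exo1, Fosb, Gzma, Gzmm, Hk2, Ifng, Il2, Isg15, Klf2, Macf1, Nr4a2, Prdm1, Rrm2, Runx3, Tbx21, Trat1, Tyms, Zap70 and Zeb2. Promoter windows came from RefSeq (GRCm38.p6), which matched 9350 listed genes. Some genes that these rules choose are not reported here.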

Additional observations from a re-analysis of the deposited data

Results flagged for a closer look

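Of 146 named genes 29 and of 33 lists 7 had 1 library far from the other 3, measured as the share of the range that its gap takes. Replicate 2 was that library for all of these genes and lists except Nkg7, whose 261 CPM in replicate 3 lay under the other values. It was high for 26 and low for 2 of the 146 genes, against 3.95% and 2.3% of all 11405 genes tested. Chance alone marks about 1 in 20 groups of 4. Some of the named genes were chosen for their spread or after their values were seen, so these counts are not a test.

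Genes of other cells gave the widest gaps in replicate 2. H2-Aa stood there at 107 CPM, H2-Ea at 61.9, Cd74 at 101, H2-Eb1 at 51.5 and H2-Ab1 at 59.2. Cd4 was listed at 38.6 CPM, Fscn1 at 54.5, Lyz2 at 40.0 and Mpeg1 at 31.7. The summed markers were high in the same library, at 361 CPM for B cells and 99.2 for CD4 and regulatory T cells. They were 18.4 for natural killer cells, 162 for myeloid cells and 34.7 for dendritic cells. Several sums are not separate from the genes above. That of B cells holds H2-Aa, Cd74, H2-Eb1 and H2-Ab1, that of CD4 cells holds Cd4, and that of myeloid cells holds Lyz2 and Mpeg1.

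Response genes were also high in replicate 2, and the part of other cells in their values was not tested. Il2ra, named here, is also one of the CD4 and regulatory T cell markers summed above. Jun reached 190 CPM, Zfp36 598, Nfkbia 489 and Gadd45b 69.2. Among effector and activation genes Ccl5 reached 89.8 CPM, Zeb2 7.42, Il2ra 6.07, Cd44 84.1, Fasl 0.843 and Klrg1 0.0843, and the activation list summed to 1821 CPM. Klrg1 at that level rests on about 1 count.

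Smaller gaps were found in abundant genes. In replicate 2 the ribosomal protein genes summed to 38147 CPM, with Rplp1 at 1549, Rpl13a at 1941, Rps15 at 1024 and Rpl41 at 968. Zap70 stood at 331 CPM, Bcl11b at 385 and Cks2, a subunit of cyclin-dependent kinases, at 39.9. Ccr9 was low, at 153 CPM, and so was Mki67, at 94.4. The gaps of these genes were within 2 times of the other libraries.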

How the results depend on the processing

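The count of genes that differed between libraries of few and of many sorted cells was 0 under pseudocounts of 0.1 and 2, without a filter, with a mean of at least 10, after quantile normalization, after a median shift and without the trend. Leaving out 1 library gave 0 to 2299 genes, with 2299 without replicate 1 and 39 without replicate 2. Each of these fits leaves 1 library alone in its arm, which is assumed to vary like the others. The share of the 20 highest genes was 10.3% per kb of the longest transcript and 5.22% with no length, and 9.92% to 10.5% with each library left out. The mean of the libraries' median gaps was 0.117 on the log2 scale and went from 0.0866 to 0.141 with each library left out. Markers of other cells summed to 606 CPM, and to 448 to 671 with each library left out. Leaving out 1 of 4 libraries cannot move a mean by 1 SD, so it says little of stability. Means that moved by over 1.5 times without replicate 2 and are not given above were H2-Aa at 0.718, H2-Ea at 0.516, Cd74 at 1.86, H2-Eb1 at 0.711, H2-Ab1 at 3.01, Cd4 at 0.893, Fscn1 at 1.33, Lyz2 at 0.447, Mpeg1 at 0.377, Klrg1 at 0.00211, Gadd45b at 10.1 and Nfkbia at 146 CPM. Summed markers did so too, to 20.5 CPM for CD4 and regulatory T cells, 38.4 for myeloid, 5.56 for dendritic and 4.47 for natural killer cells. Depth limits genes under 1 CPM, which rest on fewer than 20 counts. No paired analysis was possible because only 1 group is described, and its replicate numbers are shared with libraries that are not compared.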

Other observations

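Transcripts of the Y chromosome were present in all 4 pools. Ddx3y, an RNA helicase gene of the Y chromosome, was listed at 124, 173, 110 and 116 CPM, and Eif2s3y, a translation factor gene beside it, at 110, 145, 86.7 and 96.7 CPM. Both were highest in replicate 2. Xist, which is transcribed from the silenced X chromosome of females, is not listed in the table used here, so the share of males in a pool cannot be read from these genes.

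Pkm and Gapdh, both genes of the glycolysis list, were listed at very different levels. Per kb, Pkm stood at 171 ± 7.78 and Gapdh at 13.6 ± 1.01 CPM per kb, with Gapdh at 43.2, 49.1, 44.7 and 41.4 CPM in the 4 libraries. The mouse genome holds many processed copies of Gapdh, and the table shares reads among copies. The part of this in the low value was not tested. Replication-dependent histone genes, whose mRNA lacks a poly(A) tail, had 8 listed members with a median of 0.982 CPM.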
